A study of Mus musculus with 4 samples.

Results

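The genes described here are the LIF, BMP and Nodal signalling genes Lifr, Il6st, Stat3, Socs3, Id1, Id2, Id3, Lefty1, Lefty2 and Nodal, which are 10 of the 22359 protein-coding genes that the GENCODE annotation places on chromosomes 1 to 19, X and Y of the mouse genome build mm9 (NCBIM37). They are given by name, and the list was drawn up with earlier results of these data known. Each gene was given 1 transcription start site (TSS), namely the one shared by the largest number of its protein-coding transcripts or, where starts were tied as at Lifr and Stat3, the most upstream of them. Acetylation of histone H3 at lysine 9 (H3K9ac) and at lysine 14 (H3K14ac) was profiled in untreated mouse embryonic stem (mES) cells by chromatin immunoprecipitation followed by sequencing (ChIP-seq). The series holds 4 libraries, one each for the rabbit polyclonal antibody AB4441 against H3K9ac, the mouse monoclonal antibodies 13HH3 and 7G8 against H3K14ac, and input DNA without antibody. The labels give the E14 line of strain 129P2/OlaHsd, while the methods describe wild type cells derived from blastocysts that were kept on feeder cells with serum and leukemia inhibitory factor and then without feeders. Every value below was thus measured in cells grown with LIF and serum, and the 4 libraries allow no comparison with cells grown without them.

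Leukemia inhibitory factor (LIF) binds a receptor pair made of the LIF receptor (Lifr) and gp130 (Il6st), and the kinases bound to it activate the transcription factor STAT3, which switches on target genes that include its own inhibitor Socs3. BMP ligands act through SMAD1 and SMAD5 on the Id genes, whose proteins bind and block bHLH transcription factors, and together with LIF they keep mES cells undifferentiated in serum-free culture. Nodal signals through SMAD2, SMAD3 and the cofactor FOXH1 and induces both its own gene and the secreted antagonists Lefty1 and Lefty2. Acetylated H3K9 and H3K14 are typical of nucleosomes beside active start sites and enhancers.

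The libraries held 23181544 (H3K9ac), 21626227 (13HH3), 23837354 (7G8) and 19313142 (input) usable tags, a tag being 1 mapped read. For each gene the tags in the 2 kb on either side of the TSS were counted, scaled to 10000000 tags per library, and divided by those of input to give a log2 ratio. With 1 library per antibody no test between libraries was possible, so all intervals are exact 95% intervals that cover counting error only. Genes were called enriched at 2-fold over input or more, and all genes with at least 3 input tags gave the background. At the same windows, 7 of 8 mES marker genes reached 2-fold in H3K9ac with a median log2 ratio of 2.61 (range 0.76 to 4.09), the exception being Esrrb. Of 8 fibroblast (feeder) marker genes 1 did, with a median of 0.64 (range -0.32 to 1.01), and of 6 genes of differentiating cells 5 did, with a median of 1.31 (range 0.87 to 1.64).

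H3K9ac reached 2-fold over input at 9 of the 10 signalling genes, beside 56.8% of all genes. The exception was Il6st at its GENCODE TSS, whereas a start listed 10938 bp upstream gave a log2 ratio of 2.64. H3K14ac measured with 13HH3 reached 2-fold at 5 of the 10 genes (Stat3, Id1, Id2, Id3 and Nodal), beside 16.2% of all genes. With 7G8 it did so at 3 (Stat3, Id2 and Nodal), beside 16.7%. Which genes passed depended on the window. With H3K9ac, 8 genes passed within 5 kb of the TSS, as Lefty1 (log2 0.81) did not. Within 1 kb of the TSS, 13HH3 passed at Socs3 (log2 1.52) and not at Id3 (0.75), and 7G8 passed at Socs3 (1.04) and Id1 (1.70) and not at Nodal (0.88). Within 5 kb, 13HH3 at Id3 was 0.29, and Id2 alone passed with 7G8 (1.18). The share of all genes was not computed for the windows of 1 kb and 5 kb. The median log2 ratio of the 10 genes was 2.17 for H3K9ac, 1.01 for 13HH3 and 0.77 for 7G8, against 1.29, 0.35 and 0.35 over all genes. A called peak lay at least partly within 2 kb of the TSS at all 10 genes for H3K9ac (65.0% of all genes), at 5 for 13HH3 (28.6%) and at 6 for 7G8 (25.0%). At Il6st the H3K9ac peak only reached the edge of this window, from 2415 to 1766 bp before the GENCODE TSS (29 tags, 5 in input). Peaks of all 3 antibodies stood at Stat3, Socs3, Id1, Id2 and Nodal, and Id3 had peaks of H3K9ac and 7G8. At the stricter peak threshold of 1e-10, 9 genes had an H3K9ac peak (56.0% of all genes), 4 a 13HH3 peak (8.68%) and 2, Stat3 and Nodal, a 7G8 peak (5.98%).

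**Figure D1:**
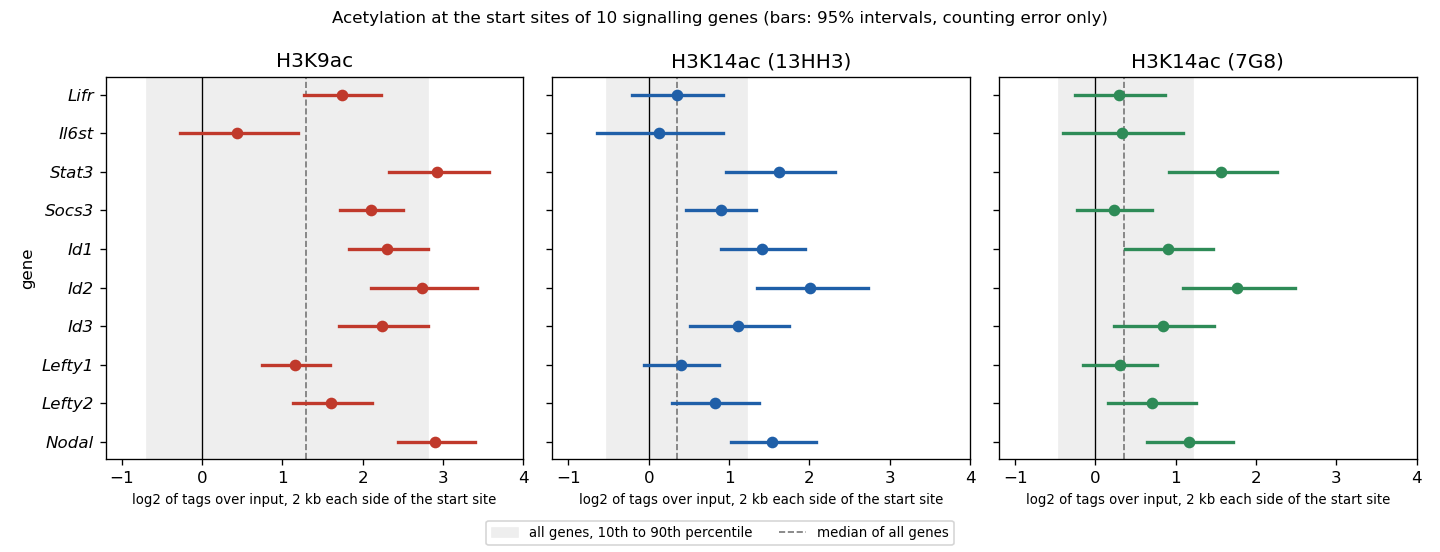
Log2 ratio of tags over input within 2 kb of the TSS (horizontal axis) for the 10 genes (vertical axis), with 1 panel per antibody; points are ratios, coloured bars exact 95% intervals for counting error, the grey band the 10th to 90th percentile of all genes and the dashed line their median. H3K9ac ran from 0.44 at the GENCODE TSS of Il6st to 2.93 at Stat3, while the highest value of both H3K14ac antibodies was at Id2 (2.01 and 1.76).

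Among the components of the LIF receptor, Lifr (chr15:7079559-7147489, plus strand) had 81.1 H3K9ac, 31.0 13HH3, 29.8 7G8 and 24.3 input tags per 10000000 within 2 kb of its TSS. H3K9ac stood clearly above input, whereas both H3K14ac libraries lay close to it. H3K9ac gave a log2 ratio of 1.74 (1.27 to 2.23), 13HH3 one of 0.35 (-0.21 to 0.92) and 7G8 one of 0.29 (-0.26 to 0.86). The H3K9ac peaks formed a pair of 1100 bp each on either side of the TSS, from 1258 to 159 bp before it and from 42 to 1141 bp after it. The TSS lies in a CpG-rich stretch with 128 CpGs in 1 kb, percentile 98.5 of all genes. The highest H3K9ac bin of the locus was not at the TSS but 14 to 13 kb upstream, between genes, with 87 H3K9ac, 30 13HH3, 54 7G8 and 21 input tags. It belonged to an H3K9ac peak of 2850 bp with 204 tags against 43 in input (log2 1.98, 1.50 to 2.49), and peaks of both H3K14ac antibodies began in the same stretch, at 14758 bp upstream. Both H3K14ac antibodies thus had a peak in this upstream stretch and none within 2 kb of the TSS. A further RefSeq start 10983 bp downstream showed no peak of any antibody, with log2 ratios of 0.28 (-0.18 to 0.75), -0.02 (-0.51 to 0.47) and -0.26 (-0.76 to 0.24) for H3K9ac, 13HH3 and 7G8.

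At Il6st (chr13:113265216-113297068, plus strand), which encodes the signal-transducing subunit gp130, the result depended on which annotated start was used. Within 2 kb of the GENCODE TSS there were 19.0 H3K9ac, 15.3 13HH3, 17.6 7G8 and 14 input tags per 10000000. All 4 libraries were close, and the log2 ratios of 0.44 (-0.28 to 1.19), 0.13 (-0.65 to 0.92) and 0.33 (-0.40 to 1.09) had intervals that include 0. The promoter which RefSeq lists for Il6st matched the genome 10938 bp upstream of that TSS, and it was measured after the values at the GENCODE TSS had been seen. Around it there were 96.6 H3K9ac, 32.8 13HH3, 35.2 7G8 and 15.5 input tags per 10000000. The ChIP libraries were all above input there, at log2 ratios of 2.64 (2.08 to 3.24), 1.08 (0.44 to 1.75) and 1.18 (0.56 to 1.83), and peaks of all 3 antibodies were present. The H3K9ac peak at this place was 4150 bp wide, from 12865 to 8716 bp before the GENCODE TSS, with 234 tags against 33 in input. With the RefSeq start in place of the GENCODE TSS, 10 of the 10 genes reached 2-fold in H3K9ac, 6 in 13HH3 and 4 in 7G8. In these counts Id1, Lefty1 and Lefty2, which had no RefSeq promoter, kept their GENCODE TSS. At Lifr the more upstream RefSeq start was used. The share of all genes at RefSeq starts was not computed.

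The sequences upstream of both Il6st starts are shown because the windows around them gave such different counts. They are the 250 bases before the start on the plus strand of NCBIM37, written 5′ to 3′, at chr13:113264966-113265215 for the GENCODE start and at chr13:113254028-113254277 for the RefSeq start. In the 1 kb around the start there were 14 CpGs (percentile 26.9 of all genes) at the former and 98 (percentile 91.7) at the latter.
Il6st GENCODE start: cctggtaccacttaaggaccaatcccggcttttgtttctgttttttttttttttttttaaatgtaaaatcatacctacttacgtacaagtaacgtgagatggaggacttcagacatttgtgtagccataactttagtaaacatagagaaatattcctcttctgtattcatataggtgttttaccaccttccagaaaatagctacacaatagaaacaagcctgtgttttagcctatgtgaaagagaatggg
Il6st RefSeq start: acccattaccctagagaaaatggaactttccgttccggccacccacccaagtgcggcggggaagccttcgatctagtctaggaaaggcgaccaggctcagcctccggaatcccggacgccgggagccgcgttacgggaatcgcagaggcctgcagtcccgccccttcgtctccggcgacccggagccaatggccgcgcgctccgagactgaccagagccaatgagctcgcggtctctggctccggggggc

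**Figure D2:**
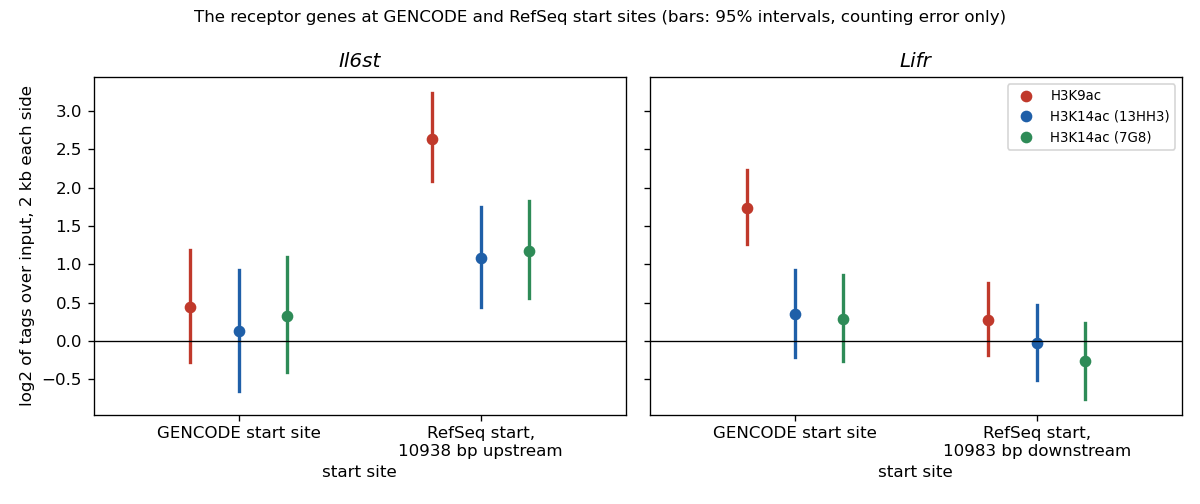
Log2 ratio of tags over input (vertical axis) within 2 kb of the GENCODE and RefSeq starts (horizontal axis) of Il6st and Lifr, with exact 95% intervals for counting error. At Il6st all 3 antibodies were higher at the RefSeq start upstream (2.64, 1.08 and 1.18) than at the GENCODE start, and at Lifr the downstream RefSeq start stayed near 0.

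A further peak of each H3K14ac antibody was called between these starts, with 18 tags each, and neither was called at the stricter threshold of 1e-10. In the bin from 5 to 4 kb upstream of the GENCODE TSS the 7G8 library had 31 tags and input 1, a log2 ratio of 4.65 with a wide interval (2.07 to 10.00). A 13HH3 peak of 550 bp with 18 tags and none in input began 4615 bp upstream, and no H3K9ac peak was called there.

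Stat3 (chr11:100746412-100800854, minus strand), the transcription factor activated by the LIF receptor, had 98.4 H3K9ac, 39.8 13HH3, 38.2 7G8 and 12.9 input tags per 10000000 within 2 kb of its TSS. All 3 antibodies were above input, with log2 ratios of 2.93 (2.33 to 3.58), 1.62 (0.96 to 2.32) and 1.56 (0.91 to 2.26), which lie at percentiles 91.6, 96.1 and 95.8 of all genes. Its H3K9ac ratio was the highest of the 10 genes but close to that of Nodal (2.90), and within 5 kb of the TSS it was 2.07, below Id2 (2.58), Nodal (2.41) and Socs3 (2.13). One H3K9ac peak of 2750 bp spanned the TSS with 197 tags against 14 in input. For both H3K14ac antibodies the signal was split by the TSS. The peak upstream of it ran from 896 to 147 bp before the TSS for 13HH3 (28 tags, 2 in input) and from 946 to 147 bp for 7G8 (32 tags, 2 in input). The peak after it, centred in an intron, ran from 4 to 853 bp for 13HH3 and from 154 to 753 bp for 7G8. The 250 bases printed for Stat3 begin inside these upstream peaks and run through the gap to the TSS.

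The promoter bases printed for the genes with peaks of H3K9ac and 13HH3 are the 250 before the TSS, 5′ to 3′ on the strand of the gene. Capitals mark matches to TTCNNNGAA (bound by STAT factors), GGCGCC (SMAD1 and SMAD5), AATNCACA (FOXH1) or GTCTAGAC (SMAD3 and SMAD4), searched on both strands in the window from 250 bases before to 50 after the TSS. No match overlapped another in the 10 promoters. Among the promoters of all 22359 genes, 7.91% held the first, 14.6% the second, 3.26% the third and 0.170% the last. Matches describe the letters only.
Stat3 (chr11:100800855-100801104, minus strand): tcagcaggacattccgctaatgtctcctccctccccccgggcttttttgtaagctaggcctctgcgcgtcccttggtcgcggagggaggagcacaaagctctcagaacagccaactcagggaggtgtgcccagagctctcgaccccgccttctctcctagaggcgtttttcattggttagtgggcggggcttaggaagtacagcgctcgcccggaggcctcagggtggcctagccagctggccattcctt

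Socs3 (chr11:117827393-117831361, minus strand), the feedback inhibitor of the LIF receptor and its kinases, had 149 H3K9ac, 64.7 13HH3, 40.7 7G8 and 34.7 input tags per 10000000 within 2 kb of its TSS. In this window H3K9ac was more than 4-fold above input and 13HH3 less than 2-fold, while 7G8 was near input. The log2 ratios were 2.10 (1.72 to 2.50), 0.90 (0.47 to 1.34) and 0.23 (-0.23 to 0.70). The H3K14ac values depended on the window, since 13HH3 was 1.52 and 7G8 1.04 within 1 kb of the TSS and 0.94 and 0.86 within 5 kb. The H3K9ac signal was the broadest of the 10 genes. A single peak of 8650 bp ran from 1200 bp before to 7449 bp after the TSS, well past the end of the gene, with 790 tags against 126 in input (log2 2.39, 2.11 to 2.67). It was accompanied by 10 further H3K9ac peaks within 20 kb, and 31 of the 40 bins of 1 kb touched one of these 11 peaks. The highest bin lay 6 to 7 kb downstream, between genes, with 123 H3K9ac, 38 13HH3, 47 7G8 and 17 input tags. Upstream, an H3K9ac peak of 3400 bp from 8450 to 5051 bp before the TSS held 303 tags against 34 in input (log2 2.89, 2.38 to 3.45). Peaks of 13HH3 and 7G8 lay within it, from 6500 to 5301 bp and from 6500 to 5151 bp upstream, with 59 and 80 tags. For 7G8 this upstream peak was larger than the 600 bp peak beside the TSS, which had 30 tags. A peak of 2600 bp from 19500 to 16901 bp upstream covered the start of the neighbouring gene Pgs1, 17106 bp away.

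The promoter of Socs3 was the only one of the 10 promoters with a match to the STAT motif, TTCCAGGAA, whose first base lay 61 bases before the TSS. It also held GGCGCC 241 bases before the TSS. The 300 bases at the centre of the highest bin downstream held another match, TTCCTGGAA, and are printed beneath it. The share of such matches outside promoters was not computed.
Socs3 (chr11:117830501-117830750, minus strand): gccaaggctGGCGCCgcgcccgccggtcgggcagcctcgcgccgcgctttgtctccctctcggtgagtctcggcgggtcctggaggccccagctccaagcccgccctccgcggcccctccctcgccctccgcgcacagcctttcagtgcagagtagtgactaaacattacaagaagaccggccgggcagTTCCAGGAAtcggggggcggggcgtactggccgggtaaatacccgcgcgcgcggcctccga
Socs3 downstream bin (chr11:117823851-117824150, minus strand): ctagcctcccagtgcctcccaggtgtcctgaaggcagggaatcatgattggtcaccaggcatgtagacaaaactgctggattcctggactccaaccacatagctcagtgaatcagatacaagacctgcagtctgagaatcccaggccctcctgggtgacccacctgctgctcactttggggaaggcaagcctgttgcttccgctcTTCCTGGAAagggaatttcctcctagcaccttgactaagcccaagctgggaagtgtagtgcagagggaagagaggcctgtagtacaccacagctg

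The Id genes, targets of BMP signalling, are short, and the windows within 2 kb of their TSSs contain them almost or entirely. Id1 (chr2:152561987-152563146, plus strand) had 107 H3K9ac, 57.8 13HH3, 40.7 7G8 and 21.7 input tags per 10000000. Id2 (chr12:25778666-25780957, minus strand) had 79.4, 48.1, 40.3 and 11.9, and Id3 (chr4:135699412-135701670, plus strand) had 80.7, 37.0, 30.6 and 17.1. All 3 genes were above input with every antibody, with no interval reaching 0.

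Over input, Id2 was the highest of the 10 genes in H3K14ac, at log2 2.01 (1.35 to 2.73) with 13HH3 and 1.76 (1.09 to 2.48) with 7G8, percentiles 98.8 and 97.8 of all genes. Within 1 kb of the TSS Stat3 was the highest with both antibodies (2.80 and 2.48), and Id1 (2.31) also exceeded Id2 (2.07) with 13HH3. Its H3K9ac ratio was 2.74 (2.11 to 3.43). Id1 had 2.30 (1.83 to 2.81), 1.41 (0.90 to 1.95) and 0.90 (0.37 to 1.46) for H3K9ac, 13HH3 and 7G8. Id3 had 2.24 (1.70 to 2.82), 1.11 (0.51 to 1.75) and 0.84 (0.23 to 1.48). The intervals of the 3 genes overlapped for each antibody. Id2 had the lowest input count of the 3 genes, 23 tags against 42 at Id1 and 33 at Id3, and the part of this in its ratios was not tested.

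At Id1 an H3K9ac peak of 2950 bp and a 13HH3 peak of 1250 bp covered the TSS, whereas the only 7G8 peak near it lay 1786 to 1387 bp upstream (17 tags, 1 in input). A broad H3K9ac peak of 4200 bp lay from 9586 to 5387 bp upstream with 268 tags against 47 in input (log2 2.25, 1.80 to 2.73). The narrower peak at the TSS held 244 tags against 45, with a similar ratio (log2 2.18, 1.71 to 2.67). At Id2 the H3K9ac peak of 2600 bp covered the TSS, and further H3K9ac peaks of 900 and 2000 bp lay upstream within 6 kb. The 13HH3 peak from 2993 to 1944 bp before the Id2 TSS held 47 tags and that in the gene 48, with 5 and 8 in input. At Id3 the H3K9ac peak of 2250 bp began 39 bp after the TSS and followed the gene to its end, with 159 tags against 26. Within 2 kb of the Id3 TSS only 7G8 of the H3K14ac antibodies gave a peak (20 tags, 7 in input, log2 1.21, -0.09 to 2.70), although 13HH3 had more tags there (80 against 73).

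The promoters of Id1 and Id2 are printed as those of the genes with peaks of both marks, and the upstream bins as the distal bins with the most H3K9ac tags at these genes. Over input these bins had log2 ratios of 2.77 (1.86 to 3.82) at Id1 and 3.11 (1.90 to 4.61) at Id2, the highest among such bins of the 10 genes apart from the one beside the RefSeq start of Il6st (3.44, 2.25 to 4.93). GGCGCC stood 231 bases before the Id2 TSS, and in the Id3 promoter, not printed, 7 bases after the TSS. The promoter of Lifr, also not printed, held GGCGCC at 181 and at 12 bases before the TSS. The Id1 promoter held no match to any of the 4 motifs. The Id2 upstream bin held TTCTTTGAA. Of each distal bin named for the 10 genes, only the 300 bases at its centre were searched, and the rest was not. Among these central stretches, only those of Socs3 and Id2 held a match to any of the 4 motifs.
Id1 (chr2:152561737-152561986, plus strand): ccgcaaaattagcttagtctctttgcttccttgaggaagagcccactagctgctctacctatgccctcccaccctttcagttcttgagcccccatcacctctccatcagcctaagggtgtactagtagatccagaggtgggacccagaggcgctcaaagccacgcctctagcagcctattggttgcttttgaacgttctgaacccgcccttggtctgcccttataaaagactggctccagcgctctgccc
Id1 upstream bin (chr2:152553337-152553636, plus strand): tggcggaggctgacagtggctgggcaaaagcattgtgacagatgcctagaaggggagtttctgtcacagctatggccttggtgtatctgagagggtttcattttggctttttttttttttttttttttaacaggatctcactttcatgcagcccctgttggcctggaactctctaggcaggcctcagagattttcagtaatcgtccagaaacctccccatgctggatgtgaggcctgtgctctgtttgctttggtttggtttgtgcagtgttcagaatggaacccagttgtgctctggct
Id2 (chr12:25780958-25781207, minus strand): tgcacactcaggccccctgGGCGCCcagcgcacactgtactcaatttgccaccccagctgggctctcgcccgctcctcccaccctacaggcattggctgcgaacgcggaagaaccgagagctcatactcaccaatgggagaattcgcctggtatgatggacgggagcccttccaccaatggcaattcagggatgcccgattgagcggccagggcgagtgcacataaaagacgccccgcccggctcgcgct
Id2 upstream bin (chr12:25785308-25785607, minus strand): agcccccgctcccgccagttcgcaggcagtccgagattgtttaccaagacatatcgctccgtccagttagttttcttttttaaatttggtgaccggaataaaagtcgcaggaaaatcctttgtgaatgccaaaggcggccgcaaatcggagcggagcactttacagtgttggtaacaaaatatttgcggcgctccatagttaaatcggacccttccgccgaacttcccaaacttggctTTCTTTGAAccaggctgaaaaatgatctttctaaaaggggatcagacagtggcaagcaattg

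Nodal (chr10:60880720-60888086, plus strand), the ligand, had the most H3K9ac tags of the 10 genes within 2 kb of its TSS. There were 162 H3K9ac, 63.3 13HH3, 48.7 7G8 and 21.7 input tags per 10000000, and all 3 antibodies were more than 2-fold over input. The log2 ratios were 2.90 (2.44 to 3.40), 1.54 (1.03 to 2.08) and 1.16 (0.64 to 1.71). A single H3K9ac peak of 6000 bp ran from 3269 bp before to 2730 bp after the TSS with 498 tags against 70 in input (log2 2.57, 2.20 to 2.95). Its maximum was not at the TSS but 2 to 1 kb upstream, where 119 H3K9ac tags stood against 6 in input (log2 4.05, 2.88 to 5.52), the highest H3K9ac ratio among the top bins of the 10 genes. The 7G8 library had its highest bin at the same place (49 tags), and the peaks of 13HH3 and 7G8 there both began 1869 bp upstream. The highest 13HH3 bin lay further upstream, at 10 to 9 kb, with 55 13HH3, 57 H3K9ac, 41 7G8 and 17 input tags. In that bin 13HH3 matched H3K9ac in tags, unlike at the TSS, where it had 137 against 376. No match to the 4 motifs was found in the Nodal promoter.
Nodal (chr10:60880470-60880719, plus strand): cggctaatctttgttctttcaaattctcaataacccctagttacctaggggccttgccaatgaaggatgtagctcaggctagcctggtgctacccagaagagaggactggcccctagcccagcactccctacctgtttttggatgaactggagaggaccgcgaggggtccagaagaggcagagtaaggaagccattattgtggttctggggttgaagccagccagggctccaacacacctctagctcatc

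Lefty1 and Lefty2, which encode the inhibitors of Nodal, lie near each other on chromosome 1 (chr1:182865153-182868531 and chr1:182823239-182829234, both on the plus strand). Lefty1 had 77.6 H3K9ac, 45.8 13HH3, 42.8 7G8 and 34.7 input tags per 10000000 within 2 kb of its TSS, and Lefty2 had 71.2, 41.2, 37.8 and 23.3. H3K9ac passed 2-fold at both genes and H3K14ac at neither, although within 5 kb of the TSS H3K9ac at Lefty1 was 0.81 and did not pass. For Lefty1 the log2 ratios were 1.16 (0.75 to 1.59), 0.40 (-0.06 to 0.87) and 0.30 (-0.16 to 0.77), and for Lefty2 they were 1.61 (1.13 to 2.12), 0.82 (0.29 to 1.37) and 0.70 (0.16 to 1.25). The intervals of the 2 genes overlapped for each antibody. No H3K14ac peak was called within 2 kb of either TSS. Both starts were poor in CpG, with 22 and 21 in 1 kb (percentiles 36.9 and 36 of all genes).

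At Lefty2 H3K9ac peaks lay both upstream and in the gene, and the intervals of their ratios over input overlapped. A peak of 1650 bp from 5038 to 3389 bp upstream held 148 tags against 28 in input (log2 2.14, 1.55 to 2.78), and it contained both 7G8 peaks and 1 of the 3 13HH3 peaks of the locus. The peak nearest the TSS began 562 bp after it and held 89 tags against 15 (log2 2.31, 1.51 to 3.20). The highest H3K9ac bin of the Lefty1 locus belonged to a neighbouring gene. It was the bin from 7 to 8 kb downstream (75 tags, 9 in input), which holds the start of Tmem63a 7322 bp away.

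The Lefty promoters are shown, by a choice made after their values were seen, because the pair is similar in sequence. In an alignment of the 250 bases before each TSS, 212 bases were paired, and 189 of these (89.2%) were identical. Bases opposite gaps are left out of this share. Capitals mark each base that lies in a stretch of at least 12 bases also found in the other promoter. They cover 82 bases at Lefty1 and 83 at Lefty2. Where such stretches overlap they run together, so a capital run need not be the same in both, and the longest run was 30 bases at Lefty1 and 31 at Lefty2, shorter than a read of 36 bases. Of all 36-base stretches of the genome sequence, those within 2 kb of the TSS were unique for 93.9% of positions at Lefty1 and 90.1% at Lefty2, against 91.8% at Nodal and 94.9% to 100% at the other 7 genes. Over the whole gene the share was 84.7% at Lefty1 and 89.1% at Lefty2. The part of this in the tag counts was not tested.
Lefty1 (chr1:182864903-182865152, plus strand): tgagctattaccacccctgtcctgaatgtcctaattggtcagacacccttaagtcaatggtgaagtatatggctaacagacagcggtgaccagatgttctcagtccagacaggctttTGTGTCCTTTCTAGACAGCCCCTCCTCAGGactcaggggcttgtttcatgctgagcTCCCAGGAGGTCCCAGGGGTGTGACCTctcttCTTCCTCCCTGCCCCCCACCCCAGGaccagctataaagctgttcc
Lefty2 (chr1:182822989-182823238, plus strand): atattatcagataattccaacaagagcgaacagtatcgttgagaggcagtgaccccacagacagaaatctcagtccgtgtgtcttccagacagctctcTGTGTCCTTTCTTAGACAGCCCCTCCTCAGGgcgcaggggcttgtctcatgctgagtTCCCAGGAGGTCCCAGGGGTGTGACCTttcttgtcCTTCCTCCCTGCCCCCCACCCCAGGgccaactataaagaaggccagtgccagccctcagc

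**Figure D3:**
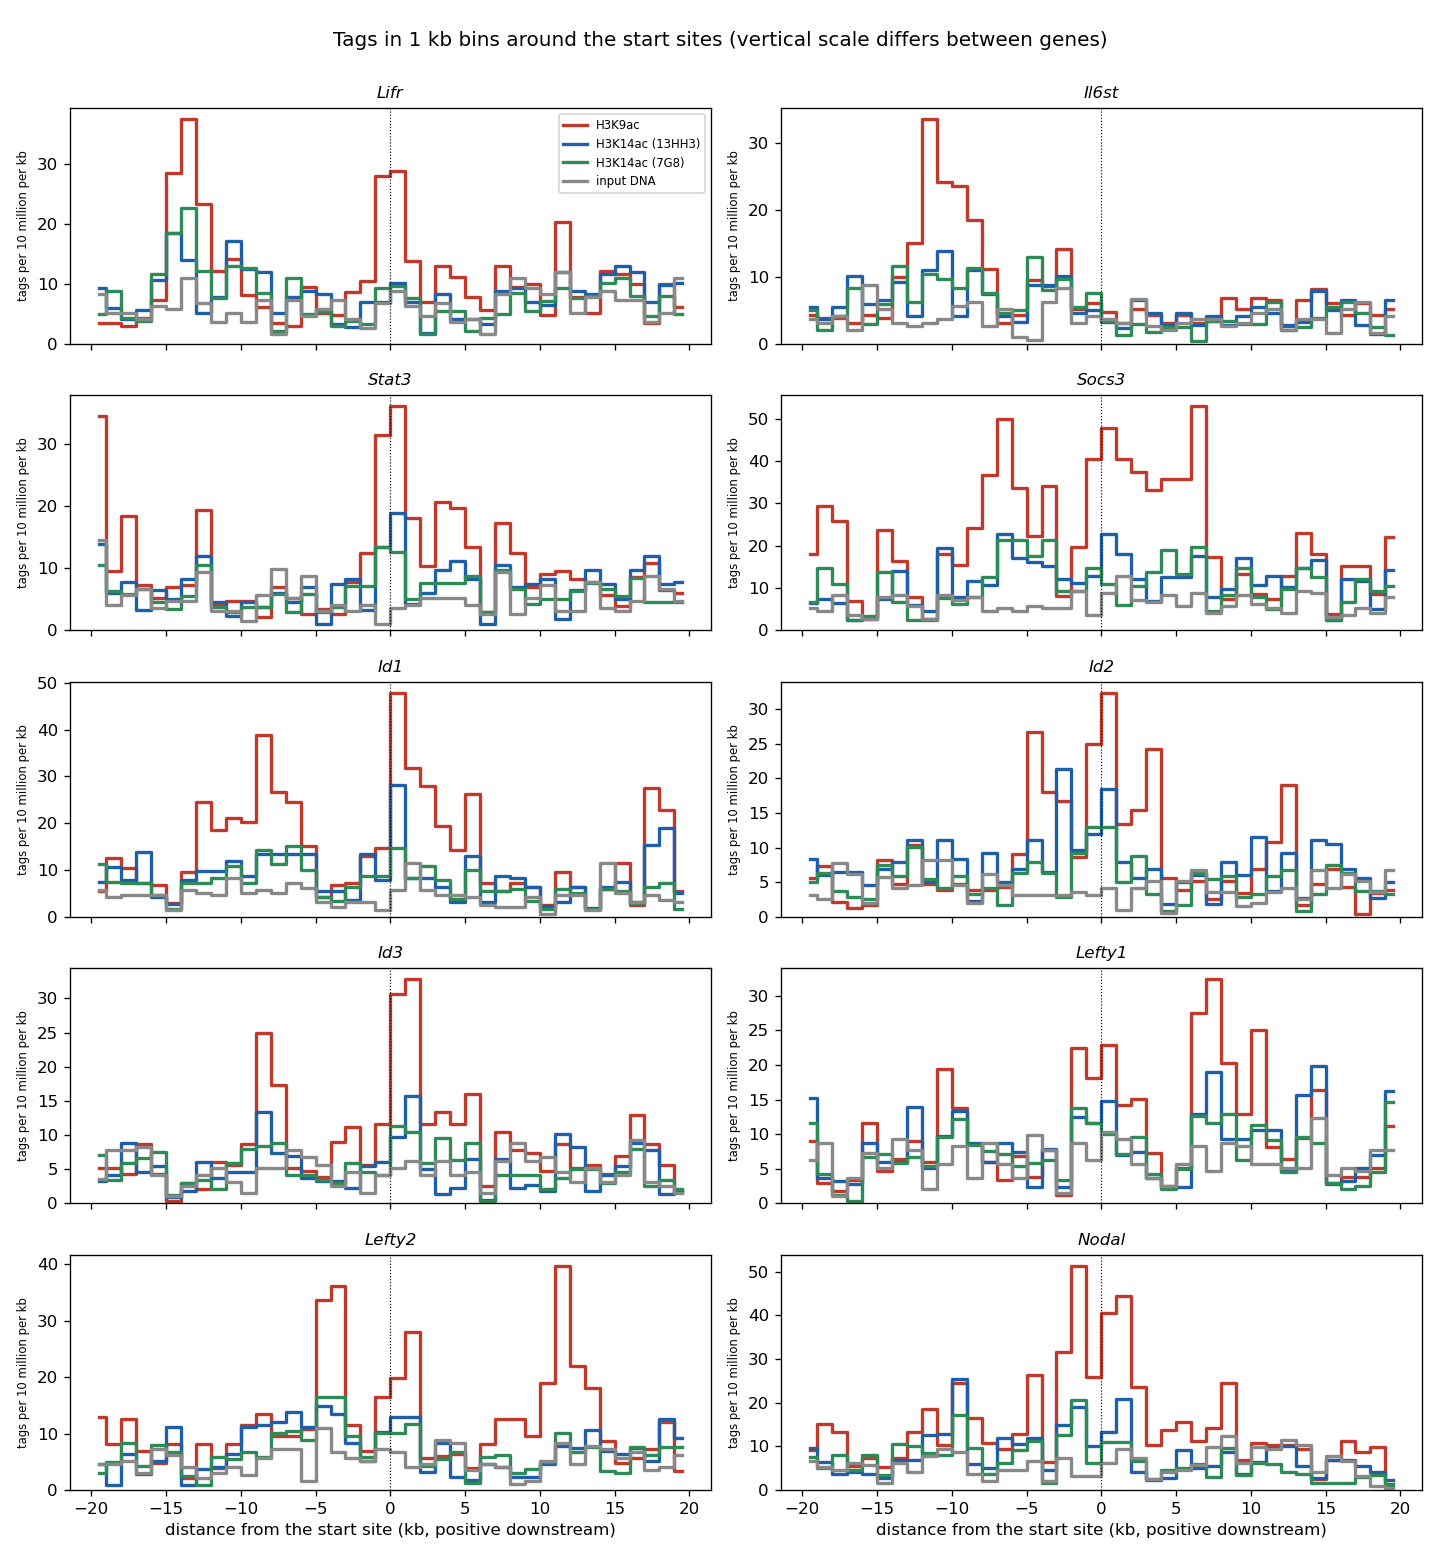
Tags per 10000000 in 1 kb bins (vertical axis, own scale for each gene) against the distance from the TSS in kb along the direction of the gene (horizontal axis) for the 3 antibodies and input. The highest H3K9ac bin lay within 2 kb of the TSS at Stat3, Id1, Id2, Id3 and Nodal, and away from it at Lifr, Il6st, Socs3, Lefty1 and Lefty2.

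By H3K9ac tags within 2 kb of the TSS the order was Nodal, Socs3, Id1, Stat3, Lifr, Id3, Id2, Lefty1, Lefty2 and Il6st, with 376 tags at the top and 44 at the bottom. Among neighbours in this order, Socs3 exceeded Id1 (345 against 249 tags, log2 0.47, 0.23 to 0.71) and Lefty2 exceeded Il6st (165 against 44, log2 1.91, 1.42 to 2.42), and no other neighbours differed beyond counting error. The input counts were 67 at Socs3 and 42 at Id1. Over input, Socs3 (log2 2.10, 1.72 to 2.50) did not exceed Id1 (2.30, 1.83 to 2.81). In the H3K14ac libraries the lone step between neighbours beyond counting error was that from Lifr down to Il6st, at log2 1.02 (0.40 to 1.67) for 13HH3 and 0.76 (0.19 to 1.34) for 7G8. By tags Il6st was thus the lowest at its GENCODE TSS with every antibody. Over input its 7G8 ratio (0.33) was above those of Socs3 (0.23), Lifr (0.29) and Lefty1 (0.30), with overlapping intervals. Its 13HH3 ratio (0.13) was the lowest, but the interval overlapped those of Lifr, Socs3, Id1, Id3, Lefty1 and Lefty2.

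The study set the marks against each other by the ratio of their tags. At 5 of the 10 genes, Lifr, Stat3, Socs3, Id3 and Nodal, 13HH3 tags were at least 2-fold under H3K9ac tags, beside 47.4% of all genes, and the ratio lay below 0 at every gene. With libraries scaled by bins without a peak the count was 9 in place of 5, beside 57.0% of all genes. It ran from -1.39 (-1.81 to -0.98) at Lifr to -0.31 (-1.01 to 0.37) at Il6st, where the interval included 0, against a median of -0.92 over all genes. Nodal (-1.36, -1.65 to -1.07) and Stat3 (-1.31, -1.68 to -0.94) were close to Lifr, and Id2 was the least unequal of the genes with peaks of both marks (-0.72, -1.08 to -0.37). The level of this ratio depends on the efficiency of each antibody. Input was not subtracted from the tags, so its differences between genes also depend on how far each mark stood above input. At Il6st the intervals over input of both H3K9ac (0.44, -0.28 to 1.19) and 13HH3 (0.13, -0.65 to 0.92) included 0. The percentiles of the 10 genes ran from 32.6 to 68.9.

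The antibodies 13HH3 and 7G8 recognise the same mark, and with 7G8 there were fewer tags within 2 kb of the TSS beyond counting error at 3 genes, beside 11.0% of all genes. The 7G8 ratio to 13HH3 was -0.67 (-1.06 to -0.29) at Socs3, -0.51 (-0.90 to -0.11) at Id1 and -0.38 (-0.75 to -0.01) at Nodal. At the other 7 genes the intervals included 0, with ratios from -0.27 at Id3 to 0.21 at Il6st. The median over all genes was -0.01, and Socs3 lay at percentile 6.42. The 3 genes were those with the most 13HH3 tags. With 1 library each, differences of antibody and of library cannot be told apart.

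Beyond the first 2 kb, H3K9ac continued along Socs3, Lefty1 and Nodal, and it was lower over the bodies of the other genes. From 2 kb after the TSS to the end of the gene, H3K9ac per kb was 34.3 tags per 10000000 at Socs3 against 7.01 in input, 15.0 against 5.26 at Lefty1 and 14.6 against 5.02 at Nodal, with log2 ratios of 2.29 (1.49 to 3.19), 1.51 (0.63 to 2.49) and 1.54 (1.09 to 2.02). These were the 3 of 7 genes with a body long enough to count that reached 2-fold, beside 15.9% of all gene bodies. The ratio was 0.09 (-0.04 to 0.22) over the 65931 bp of Lifr, 0.51 (0.36 to 0.66) over the 52443 bp of Stat3, 0.57 (0.33 to 0.82) at Il6st and -0.21 (-0.80 to 0.39) at Lefty2. H3K14ac reached 2-fold in none of the 7 bodies with either antibody, beside 1.91% of all gene bodies with 13HH3 and 1.29% with 7G8. 7G8 lay below input with intervals that excluded 0 at Lifr (-0.37, -0.51 to -0.23), Il6st (-0.32, -0.60 to -0.05) and Stat3 (-0.24, -0.41 to -0.08), whereas 13HH3 did so at Lefty2 (-0.69, -1.37 to -0.03). Lifr, Stat3 and Il6st had the longest bodies and the narrowest intervals. The share of all gene bodies below input was not computed, so these values cannot be read as particular to these genes. The Id genes end within or just past 2 kb and were measured whole, with H3K9ac ratios of 3.17 (2.28 to 4.21) at Id1, 3.17 (2.24 to 4.27) at Id2 and 2.33 (1.73 to 2.99) at Id3.

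Around the 10 TSSs there were 75 H3K9ac peaks, 42 13HH3 peaks and 28 7G8 peaks within 20 kb. The median per gene was 8, 4 and 2, against 2, 1 and 0 over all genes. At the stricter peak threshold of 1e-10 there were 47, 10 and 5 peaks at the 10 genes. Genome-wide the peaks fell from 76908 to 36259, from 49445 to 6838 and from 25167 to 2908. The median over all genes was not computed at this threshold. Socs3 and Id1 had 11 H3K9ac peaks each and Il6st 3, while the H3K14ac antibodies ranged from 1 (Id3) to 8 (Socs3) with 13HH3 and from 0 (Lefty1) to 9 (Socs3) with 7G8. Of the 312 bins of 1 kb that lie over 2 kb from the GENCODE TSS of any gene, 94 touched an H3K9ac peak, 44 a 13HH3 peak and 22 a 7G8 peak. These are 30.1%, 14.1% and 7.05% of the bins, beside 9.93%, 3.71% and 1.87% of such bins around all genes, where a bin near several genes counts for each. The bins at the RefSeq starts of Il6st and Lifr are included, and without them 89, 41 and 20 of 302 bins touched a peak. Such distal bins were found at all 10 genes for H3K9ac, at 9 for 13HH3 and at 6 for 7G8. The share of all genes with at least 1 such bin was not computed, so these counts of genes cannot be read against it. They were spread unevenly. Of the 94 H3K9ac bins, 20 lay at Socs3, 14 at Id1 and 13 at Nodal, against 3 at Lefty1. Bins that touch the same broad peak count separately.

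To place the 10 genes in their pathways, the other genes of each pathway were counted in the same windows. For LIF signalling, 27 of 28 listed genes were found (Tfcp2l1 had no match by name), and 22 reached 2-fold in H3K9ac, 1 in 13HH3 and 3 in 7G8. For BMP signalling the counts were 21, 7 and 3 of 24, and for Nodal signalling 18, 8 and 5 of 25. Over all genes the shares were 56.8%, 16.2% and 16.7%, and the LIF counts of both H3K14ac antibodies and the BMP count of 7G8 lie under them. The median log2 ratios of H3K9ac were 1.55, 1.40 and 1.78, above the 1.29 of all genes, those of 13HH3 were 0.48, 0.56 and 0.79 against 0.35, and those of 7G8 were 0.30, 0.39 and 0.60 against 0.35, the LIF list lying below it.

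In the LIF list the highest H3K9ac ratios were at Grb2 (2.76, 2.24 to 3.32), an adaptor that links receptors to Ras, the kinase gene Pim1 (2.60, 2.12 to 3.12) and the phosphatase gene Ptpn11 (2.59, 2.02 to 3.20). The lowest were at the kinase gene Tyk2 (0.38, -0.12 to 0.90) and at the cytokine genes Cntf (0.20, -0.42 to 0.82) and Il6 (-0.29, -0.83 to 0.25). Klf4, a transcription factor downstream of STAT3, was the single gene of this list at 2-fold with 13HH3 (143 tags, log2 1.64, 1.13 to 2.18), and it is named after its value was seen. In the BMP list the receptor genes Bmpr2 (2.81, 2.26 to 3.40) and Bmpr1a (2.78, 2.20 to 3.41) led, followed by the pseudoreceptor gene Bambi (2.61, 2.02 to 3.26). Bambi was also above 2-fold with 13HH3 (1.51, 0.86 to 2.21) and 7G8 (1.49, 0.84 to 2.18). At the low end were Msx1 (0.89, 0.45 to 1.35), the receptor gene Acvr1 (0.82, 0.37 to 1.28) and the ligand gene Bmp5 (-0.41, -1.18 to 0.37).

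In the Nodal list Tdgf1, which encodes the Nodal coreceptor Cripto, had 561 H3K9ac, 212 13HH3, 178 7G8 and 31 input tags. It exceeded each of the 10 genes in every ChIP library, with log2 ratios of 3.91 (3.39 to 4.49), 2.61 (2.06 to 3.20) and 2.22 (1.66 to 2.82). Skil (3.15, 2.54 to 3.81) and Smad7 (3.11, 2.56 to 3.71), which both encode inhibitors of SMAD signalling, came next in H3K9ac. The lowest were the protease gene Furin (0.63, 0.06 to 1.21), the receptor gene Acvr1c (0.46, -0.07 to 1.00) and the antagonist gene Cer1 (0.09, -0.65 to 0.84). At Cer1 and Bmp5 a 13HH3 peak was called without an H3K9ac peak. Cer1 had 54 13HH3, 37 H3K9ac and 29 input tags and Bmp5 had 41, 29 and 32, with 13HH3 ratios of 0.73 (0.06 to 1.44) and 0.19 (-0.51 to 0.91).

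**Figure D4:**
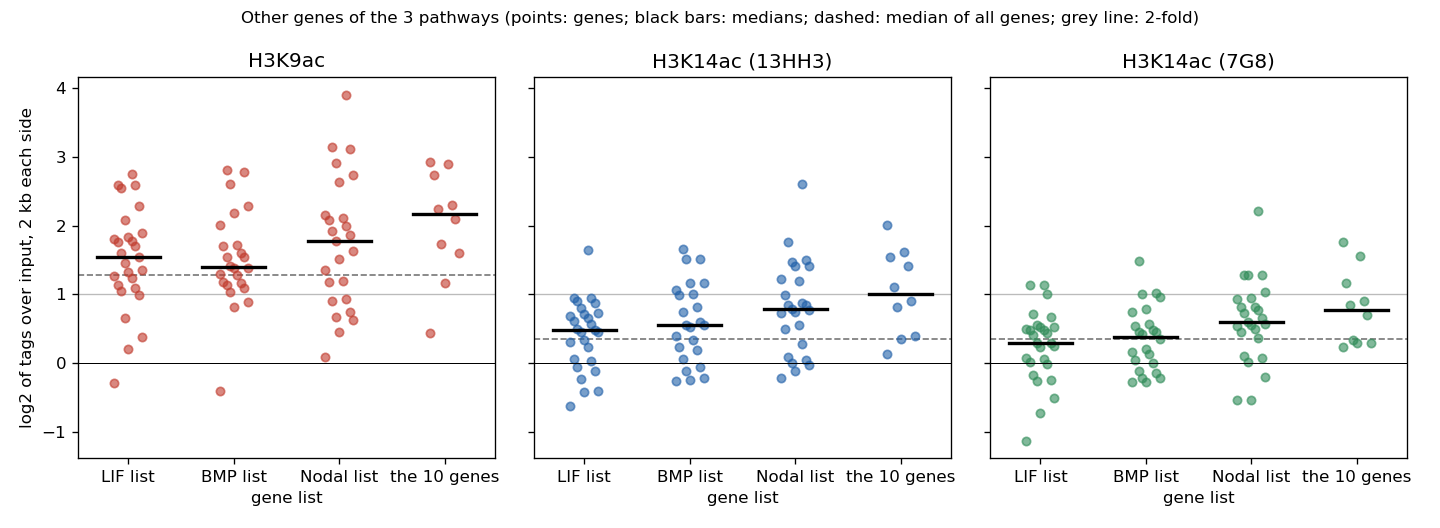
Log2 ratio of tags over input within 2 kb of the TSS (vertical axis) for the other genes of the LIF, BMP and Nodal pathways and for the 10 genes (horizontal axis), with 1 panel per antibody, 1 point per gene, black bars at the medians, a dashed line at the median of all genes and a grey line at 2-fold. The H3K9ac median was 1.55, 1.40 and 1.78 in the lists and 2.17 in the 10 genes, and the highest point, at 3.91, was Tdgf1.

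The profiles of the 10 genes over the 40 bins and 3 ChIP libraries were also compared with those of all genes over 40 kb away, by Pearson's r over 120 values of log2 (tags per 10000000 + 1). The gene most like each member had r from 0.534 (Smok3a for Il6st) to 0.661 (Git2 for Nodal), with Fbxo5 at 0.656 for Stat3 and Klf9 and Dedd at 0.613 for Socs3. Among the members themselves the highest r was 0.529 between Id1 and Id3, whereas Lefty1 and Lefty2 had 0.164. The bins of a gene share a library and its depth and the peak at the TSS, so these values describe likeness of shape only.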

How the data were processed

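H3K9ac, H3K14ac (antibodies 13HH3 and 7G8) and input DNA were measured in 1 library each. Single-end 36-base reads were mapped to mm9 by the authors using ELAND with at most 1 mismatch, and the deposited files list where and on which strand each one mapped, with no normalization. Repeats of a position and strand were absent from the deposited files except that of 13HH3, where 738619 tags (3.30%) were removed. Each tag was placed 100 bp downstream of its 5′ end, near the fragment centre.

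Counting was limited to chromosomes 1 to 19, X and Y and is given per 10000000 tags of the library. Exact Poisson intervals gave the error of counts, and exact (Clopper-Pearson) intervals that of ratios. Counting error does not cover variation between libraries. Peaks were windows of 400 bp, in steps of 50 bp, above a local Poisson rate (the highest of the genome mean and the scaled input in 1, 5 and 10 kb) at 1e-05, after the local rate of MACS, which was not run. This gave 76908 peaks for H3K9ac, 49445 for 13HH3 and 25167 for 7G8. Distances are counted from the TSS, positive along the gene. Bodies ran from 2 kb after the TSS to the end of the gene. Log2 ratios over input scaled by 10 kb bins without a peak would be higher by 0.452, 0.155 and 0.0611 for H3K9ac, 13HH3 and 7G8. RefSeq promoters (GRCm38.p6 table), present for 7 of the 10 genes, were placed on NCBIM37 by an exact match of their 300 bases. Named are all 10 genes, the 3 highest and 3 lowest genes of each pathway by H3K9ac over input, the distal bin with the most H3K9ac tags in a peak at each gene, and the genes most like each in profile. The peak caller and the intervals were tested on simulated data. The members, lists and tests were chosen with earlier results of these data known. The calculations used scipy 1.17.1 and numpy 2.4.6 under Python 3.11.15, with pandas 2.3.3 for tables and matplotlib 3.10.9 for figures. Alternatives were tried for repeats, shift, window, scaling, TSS, fold, peak threshold and antibody. The authors' peaks and expression data were not used here.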

Additional observations from a re-analysis of the deposited data

How the results depend on the processing

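Of 54 alternative counts, 43 stayed within 1.5 times the value reported, and of 240 log2 ratios of single genes 219 stayed within the reported interval and none changed sign after passing 2-fold. These totals include values that could not move. Keeping repeats changed nothing for H3K9ac, 7G8 and input, which had none. The 5′ end of the gene record differed from the TSS at Socs3 alone. No RefSeq start was listed for Id1, Lefty1 and Lefty2, and at Stat3, Id2 and Nodal it equalled the TSS. A threshold of 4-fold in place of 2-fold left 6 genes for H3K9ac, 1 for 13HH3 and 0 for 7G8, and windows of 5 kb on each side gave 8 for H3K9ac and 1 for 7G8. Counting the whole gene instead of the body raised the genes at 2-fold to 6 for H3K9ac, 2 for 13HH3 and 2 for 7G8, since it adds the Id genes. The share of all genes was not computed at 4-fold, within 5 kb or over whole genes, so these counts cannot be read against it. Calling peaks anew at 1e-10 gave 47 H3K9ac, 10 13HH3 and 5 7G8 peaks within 20 kb and, as a count added after seeing the data, 2 in place of 6 genes with a 7G8 peak within 2 kb. Scaling by bins without a peak in any library raised the genes with 13HH3 at least 2-fold under H3K9ac from 5 to 9. Scaling input by bins without a peak of the library raised the pathway genes at 2-fold from 61 to 70 for H3K9ac and from 16 to 23 for 13HH3. This scaling raises the ratios of all genes alike, and the share of all genes at 2-fold over input was not computed under it. The start of the RefSeq promoter, an alternative chosen after seeing the data, changed the value of Il6st alone beyond its interval. No paired analysis was possible because each antibody has 1 library. The depth limits calls in 1 kb bins, where input counts are low, and small differences between such bins were not detectable.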
